A study of Mus musculus with 2 samples.

Results

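Alpha cells of mouse pancreatic islets were examined in single-cell RNA-sequencing libraries from mice that carry a miR-503 transgene restricted to beta cells and from wild type mice. Both groups were C57BL/6 mice at postnatal day 70, and each group was 1 library of dissociated islets captured by droplets and counted at the 3 prime end by unique molecular identifiers (UMIs). Neither the labels nor the file headers give the number of mice behind a library, their sexes or the promoter of the transgene. An alpha cell was defined by its hormone transcripts: at most 10% of its UMIs were mitochondrially encoded, Gcg made up at least 3% of its UMIs and exceeded both Sst and Ppy, Sst stayed below 1%, and Ins1 plus Ins2 stayed below 15%. This definition kept 657 transgenic and 435 wild type cells, 1092 of 8698 deposited barcodes, with 10120979 UMIs in transgenic and 7227582 UMIs in wild type alpha cells. With 1 library per group, no difference between the genotypes has a replicate check and no test was made. The 95% intervals below cover counting error only.

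Alpha cells make glucagon, the hormone that raises blood glucose by driving glycogen breakdown and glucose output in the liver. The Gcg gene encodes proglucagon, which prohormone convertase 2 (Pcsk2) cuts to glucagon in alpha cells, while prohormone convertase 1/3 (Pcsk1) cuts it to GLP-1 in intestinal L cells. Alpha cell identity depends on its own set of transcription factors, and alpha cells respond to amino acids, to insulin and somatostatin from their neighbours and to nerve and gut signals. In the transgenic line miR-503 is made in beta cells and the alpha cells are neighbours of the cells that carry it.

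The mature microRNA and the promoter of the defining gene are shown here from RefSeq on GRCm38.p6. In miR-503-5p (chrX:53054027-53054049, minus strand) the capitals mark the seed, bases 2 to 8, through which a microRNA pairs with its targets. It was the 1 mature mouse microRNA in the table with that seed. In the Gcg window (chr2:62483604-62483903, minus strand), which runs from 250 bases before the annotated start to 50 bases after it, the capitals mark matches to TATAAA and CAGATG searched on both strands. The first, a TATA box sequence, lay 24 bases before the start, with its reverse complement TTTATA at 72 bases before it, and the second, an E box sequence, lay at 139 and 83 bases before the start. Such letters occur in 13.6% and 17.2% of 32851 windows of the same length, so the matches are a description of the sequence and not of binding.
miR-503-5p: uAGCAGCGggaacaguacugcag
Gcg: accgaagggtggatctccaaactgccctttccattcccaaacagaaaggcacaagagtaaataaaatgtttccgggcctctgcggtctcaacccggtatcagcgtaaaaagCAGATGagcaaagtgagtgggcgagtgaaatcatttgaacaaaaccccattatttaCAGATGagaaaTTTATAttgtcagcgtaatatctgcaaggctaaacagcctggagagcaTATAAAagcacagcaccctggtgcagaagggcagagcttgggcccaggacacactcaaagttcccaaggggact

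Across the series, the transgenic library had 4158 barcodes with 109243270 UMIs and the wild type library 4540 barcodes with 104677537 UMIs. The mitochondrial limit removed 7 transgenic and 17 wild type barcodes. Both libraries shared 25 barcode sequences, among which were those of 4 transgenic and 2 wild type alpha cells. The median alpha cell had 14493 UMIs and 2953 detected genes in the transgenic library, against 15041 UMIs and 2948 genes in the wild type library. The mitochondrial share was 2.1% at the median in transgenic and 2.23% in wild type alpha cells. RNA of digestive enzymes differed between the libraries in both classes: all 11 measured acinar markers were higher in transgenic alpha cells, with a median log2 ratio of 0.73, and all 12 measured were higher in transgenic beta cells, with a median of 1.53. Xist, a transcript of female cells, had 1733 UMIs in transgenic and 2 in wild type alpha cells. It was seen in 15.7% of the transgenic alpha cells. The Y-linked genes Ddx3y, Uty and Eif2s3y had alpha cell log2 ratios of −0.34, −0.36 and −0.11, so both libraries held RNA of male cells. The mix of sexes thus differed between the libraries, and its part and that of the genotype cannot be told apart.

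The glucagon definition separated the cells with few near its 3% Gcg limit. Alpha cells made up 15.8% of the kept transgenic cells (657 of 4151, 95% interval 14.7 to 17.0) and 9.62% of the kept wild type cells (435 of 4523, 8.77 to 10.5). Of the cells given an endocrine class by their hormones, they were 17.9% in the transgenic (16.7 to 19.2) and 10.8% in the wild type library (9.87 to 11.8). Beta cells, with at least 15% insulin transcripts and Gcg, Sst and Ppy each below 1%, were 64.8% of transgenic and 73.8% of wild type kept cells. Delta cells, defined by Sst, were 5.13% of transgenic and 2.5% of wild type kept cells, and gamma cells, defined by Ppy, were 2.67% and 2.98%. The difference in shares compares these libraries and has no replicate check.

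The lowest Gcg share inside the definition was 3.97% in the transgenic and 3.36% in the wild type library, and the highest outside it, in cells that met every other limit, was 2.0% and 2.68%. In the interval between 1% and 3%, 1 transgenic and 5 wild type cells met the other limits, and 1 transgenic and 5 wild type members lay between 3% and 5%. Of 812 transgenic cells with at least 3% Gcg, 104 were left out for Sst, 29 for insulin and 22 for Ppy. Of 583 such wild type cells, 65 were left out for Sst, 47 for insulin and 36 for Ppy. The cells left out for insulin were deep, with a median of 32567 UMIs in the transgenic and 24556 in the wild type library.

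Within alpha cells, Gcg took a median of 23.2% of all UMIs in the transgenic library, and the lowest 10% of cells lay below 14.4% and the highest 10% above 30.6%. In the wild type library the median was 21.7%, and the same bounds were 12.4% and 30.1%, so the distributions overlapped over most of their range. Insulin transcripts took a median of 2.86% in transgenic and 2.59% in wild type alpha cells. Macrophages, which do not make insulin, had medians of 2.63% in the transgenic and 2.59% in the wild type library. Their median depths were 10231 and 10531 UMIs, against 14493 and 15041 UMIs for alpha cells. The part of background in the insulin transcripts of alpha cells was not tested. The plot of glucagon against insulin shares shows the alpha cells as a cloud apart from beta cells.

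**Figure D1:**
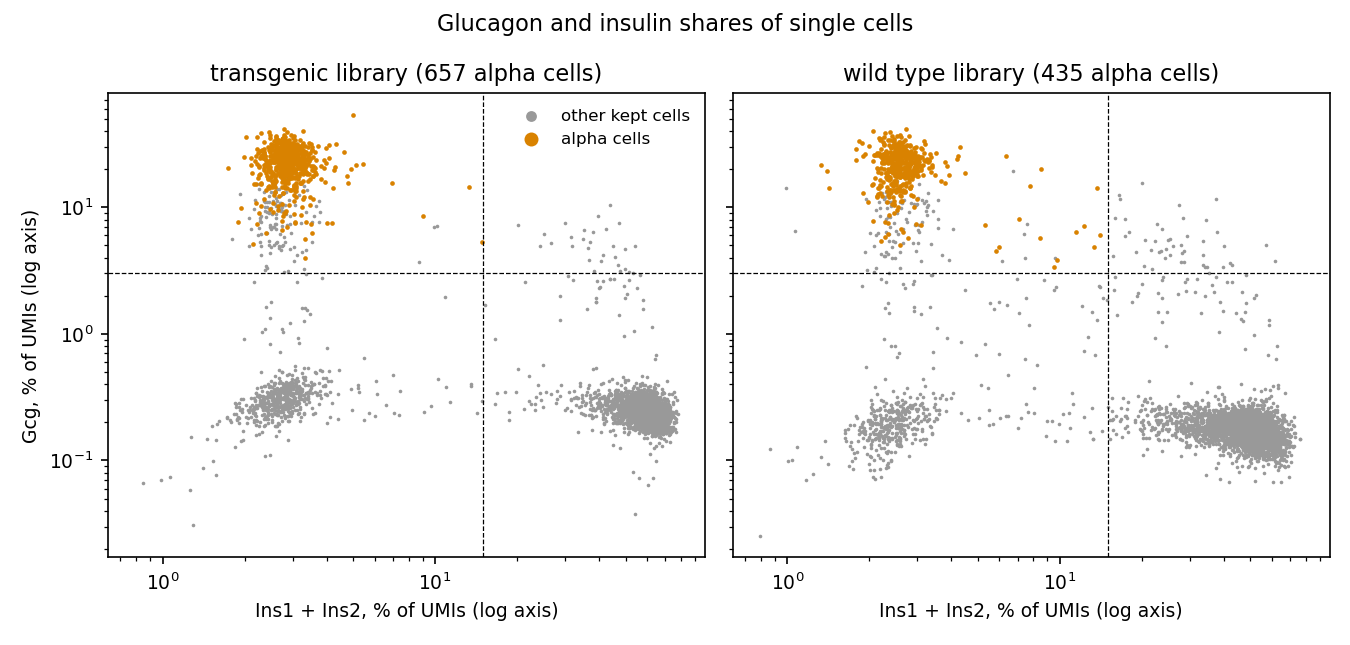
Share of UMIs from Gcg (vertical, log axis) against the share from Ins1 plus Ins2 (horizontal, log axis) in each kept cell of the transgenic (left) and wild type (right) library. Orange points are the 657 and 435 alpha cells, grey points all other kept cells (those among the orange ones exceed the Sst or Ppy limits), and dashed lines the 3% and 15% limits.

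The remaining markers named for alpha cells were also high in the cells chosen by Gcg. Levels are given as counts per 1e+06 UMIs (CPM) over the summed cells of a class. Gcg itself stood at 230301 CPM in transgenic and 211531 CPM in wild type alpha cells, 11.2 and 8.68 times the level of the next endocrine class, gamma cells, but this gene defined the class. Ttr, which encodes the thyroid hormone carrier transthyretin, stood at 34457 CPM in transgenic and 33216 CPM in wild type alpha cells, 8.06 and 8.52 times the gamma cell level. Irx1 and Irx2 encode Iroquois homeobox factors. Irx1 stood at 51.5 CPM in transgenic and 50.8 CPM in wild type alpha cells, 5.13 and 10.3 times the gamma cell level, and Irx2 at 72.4 and 54.0 CPM, 3.61 and 3.39 times. Slc38a5, an amino acid transporter, stood at 34.5 CPM in transgenic and 23.4 CPM in wild type alpha cells, 3.70 times delta cells in the transgenic and 5.51 times gamma cells in the wild type library.

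After each cell was thinned to 5000 UMIs, Irx1 had a UMI in 23.1% of transgenic and 21.6% of wild type alpha cells, against 0.521% and 0.330% of beta cells. Irx2 had one in 28.3% of transgenic and 25.3% of wild type alpha cells, against 0.632% and 0.449% of beta cells, and none in 41 transgenic or 55 wild type macrophages, which allows shares of up to 7.32% and 5.45%. Before thinning the alpha cell shares were 48.7% and 47.8% for Irx1 and 58.4% and 54.7% for Irx2, at median depths of 14493 and 15041 UMIs for alpha cells and 29078 and 23128 UMIs for beta cells. The markers that the definition did not use thus match the label of alpha cells, in the same libraries that chose the cells.

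In all, 1742 genes reached 50 CPM in alpha cells of both libraries, and 4 of them (0.23%) were at least 5-fold over every other endocrine class in both, Gcg, Ttr and Irx1 among them. Below 5-fold in at least 1 library, the genes next in this order were the thymosin gene Tmsb15b2 (4.20 times in the transgenic and 4.39 times in the wild type library), the hypoxia-induced mitochondrial gene Higd1a (4.41 and 4.15 times) and the actin-binding caldesmon gene Cald1 (4.10 and 3.64 times). They were followed by Vgf, Sfrp5, Lpl, Cryba2, C8b, Tmsb15b1 and Pappa2, at 2.25 to 7.96 times. For the genes named here, Irx2 included, gamma cells held the next level in both libraries, except for Vgf and Cryba2. The limits on Gcg were unequal: beta and delta cells had Gcg below 1%, while gamma cells needed only more Ppy than Gcg. The highest 10% of gamma cells lay above 6.93% Gcg in the transgenic and 9.99% in the wild type library. The part of such cells in this order was not tested.

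Of the convertases, Pcsk2 stood at 3938 CPM in transgenic and 3831 CPM in wild type alpha cells, while Pcsk1 had 24 and 35 UMIs in all alpha cells together. Sstr2, the receptor through which somatostatin restrains alpha cells, stood at 33.9 CPM in transgenic and 24.1 CPM in wild type alpha cells, against 0.351 and 0.309 CPM in beta cells. The glucagon receptor Gcgr had 17 and 18 UMIs and the GLP-1 receptor Glp1r 2 and 3 UMIs in transgenic and wild type alpha cells. After thinning, Gcgr was seen in 0.913% of transgenic and 1.15% of wild type alpha cells, against 4.98% and 5.72% of beta cells. Glp1r was rarely captured in beta cells also, in 0.223% of transgenic and 0.270% of wild type cells after thinning. Its absence from alpha cells therefore cannot be read.

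**Figure D2:**
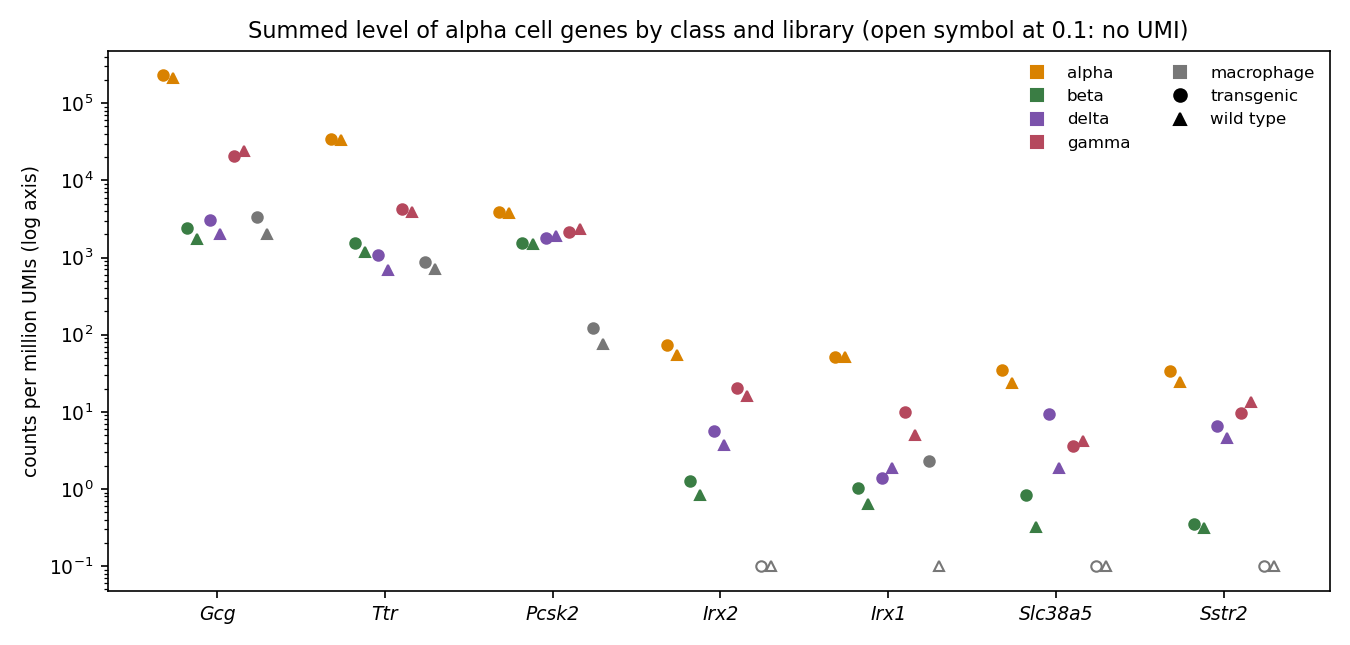
Summed level in CPM (log axis) of 7 alpha cell genes in alpha, beta, delta and gamma cells and macrophages, circles for the transgenic and triangles for the wild type library. Alpha cells hold the highest level of each gene in both libraries; open symbols at the foot mark classes with no UMI, and Gcg defined the class.

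Transcripts of peptides of the pancreatic polypeptide family varied widely among alpha cells. Ppy encodes pancreatic polypeptide and Pyy encodes peptide YY, and the genes lie side by side on chromosome 11 (Ppy at chr11:102099930-102101319 and Pyy at chr11:102106676-102107832 on GRCm38, minus strand). The median Ppy share was 0.382% in transgenic and 0.360% in wild type alpha cells, beside 0.267% and 0.218% in macrophages, but 10% of alpha cells lay above 3.68% in the transgenic and 4.41% in the wild type library and the highest values were 19.2% and 17.7%. Ppy reached 1% of UMIs in 26.5% of transgenic alpha cells (174 of 657, 95% interval 23.1 to 30.0) and in 32.4% of wild type alpha cells (141 of 435, 28.0 to 37.0). The limit cuts through a continuous range, since 134 transgenic and 102 wild type cells lay between 0.5% and 2%.

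Alpha cells over this limit carried more Pyy. The median Pyy share was 2.90% in transgenic cells over the limit and 0.706% in those below it, and 2.80% over it and 0.966% below it in the wild type library. Their Ttr share was lower, at 2.14% over and 3.62% below the limit in the transgenic and 2.13% over and 3.41% below it in the wild type library. Gcg differed less, at 22.2% over and 23.6% below in the transgenic and 19.5% over and 22.8% below in the wild type library. Across single cells Spearman's rho between the Ppy and Pyy shares was 0.61 over 657 transgenic and 0.53 over 435 wild type alpha cells, a description of cells that share 1 library each.

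Of 6170 genes compared between cells over and below the Ppy limit, Pyy was followed by Tspan8, a tetraspanin gene listed here as a gamma cell marker, at a log2 ratio of 1.03 in the transgenic and 2.32 in the wild type library, where 1 alpha cell held 39.3% of its UMIs. Fxyd3, a regulator of ion pumps, was at 0.77 in the transgenic and 0.98 in the wild type library. On the lower side was Cd74, the invariant chain of class II antigen presentation, at −0.74 in the transgenic and −1.01 in the wild type library. These genes were ranked by the smaller of the ratios in both libraries, and Ppy itself set the limit.

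**Figure D3:**
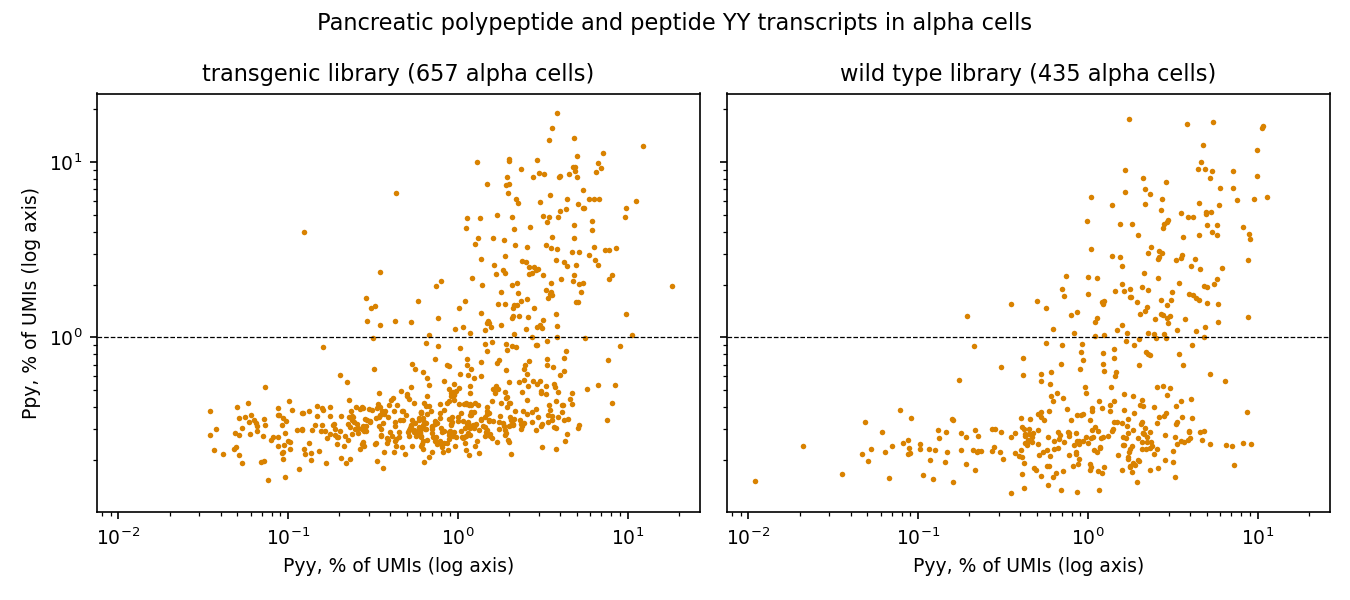
Share of UMIs from Ppy (vertical, log axis) against the share from Pyy (horizontal, log axis) in each alpha cell of the transgenic (left) and wild type (right) library. The dashed line marks 1% Ppy, over which lie 174 of 657 transgenic and 141 of 435 wild type alpha cells.

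The genes whose levels ran most like Gcg across alpha cells were weakly related to it. Of 797 genes with at least 100 CPM, the cystatin C gene Cst3 came first, with Spearman's rho of 0.15 over 657 transgenic and 0.37 over 435 wild type cells. It was followed by Itm2b, Tmem27, the carboxypeptidase Cpe, Ttr, Slc25a3, Resp18 and the Pcsk2 chaperone Scg5, the last at 0.10 in the transgenic and 0.37 in the wild type library. The strongest relations were opposed ones, led by the ribosomal protein gene Rpl41 at −0.50 in the transgenic and −0.60 in the wild type library. The mitochondrial share of a cell had a rho with the Gcg share of −0.43 in the transgenic and −0.60 in the wild type library. Gcg takes a large share of a cell's UMIs, so a higher share of it leaves less for all other genes together. The part of this in the opposed relations was not tested.

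Between the genotypes the alpha cells differed in few genes. UMIs were summed over the alpha cells of each library, and 4575 genes had at least 100 UMIs over both and 20 CPM in at least 1. Of these, 86 (1.88%) were at least 1.5-fold higher in transgenic alpha cells and 45 (0.984%) at least 1.5-fold lower, and 18 (0.393%) and 7 (0.153%) passed 2-fold. Setting aside sex-linked genes, other cell types' markers and any gene whose CPM in another class was over 5 times higher left 4237 genes, of which 55 (1.3%) were higher and 31 (0.732%) lower. Had total UMIs set the scale, every alpha cell log2 ratio would move by −0.01 and every beta cell ratio by −0.33. Under the scaling used, 13000 beta cell genes with at least 50 UMIs had a median of −0.02, 6164 above 0 and 6836 below, and on total UMIs a median of −0.34, so directions in beta cells depend on the scaling.

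The genes were placed on GRCm38 by GENCODE M21: Gcg at chr2:62474530-62483650, Irx1 at chr13:71957921-71963723, Irx2 at chr13:72628820-72634198 and Slc38a5 at chrX:8271133-8280179. Of the alpha cell markers, Irx2 and Slc38a5 were higher in transgenic cells and Gcg, which chose the cells, Ttr and Irx1 differed least. The log2 ratio of transgenic over wild type was 0.13 for Gcg, 0.06 for Ttr and 0.03 for Irx1 (95% interval −0.17 to 0.22), 0.43 for Irx2 (0.25 to 0.61) and 0.57 for Slc38a5 (0.30 to 0.84). None reached 1.5-fold, which is 0.585 on this scale, as analysed here, but Slc38a5 passed it under some alternatives, at up to 0.73 without cells over 30000 UMIs. Of 18 measured alpha cell transcription factors 12 were higher and 6 lower in transgenic cells, at a median log2 ratio of 0.10. All 9982 genes with at least 50 UMIs had a median of 0.01, with 51.8% of them above 0 and 48.2% below. Rfx6, a factor of endocrine development, was at −0.66 on 54 transgenic and 61 wild type UMIs, and at −0.11 without cells with at least 1% Ppy.

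Of 18 genes that process and store proglucagon 10 were higher, at a median log2 ratio of 0.03. Pcsk2 was at 0.05 and Scg5 at 0.23, and the neuroendocrine peptide precursor Vgf stood apart at 0.82 (0.65 to 0.98), with 101.4 CPM in transgenic and 57.8 CPM in wild type alpha cells. Of the 18 genes of vesicle release 9 were higher and 9 lower. Among 20 receptors 9 were higher and 11 lower, with Sstr2 at 0.50, the receptor of the incretin GIP (Gipr) at −0.34 and the insulin receptor Insr at −0.27, whose interval of −0.69 to 0.15 includes 0. Before thinning, Gipr was seen in 13.7% of transgenic and 16.8% of wild type alpha cells, about as few as Insr (13.5% and 18.6%). Of 20 genes of amino acid handling 10 were higher and 10 lower, with the serine synthesis gene Phgdh at 0.76 and the asparagine synthetase Asns at 0.50.

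Among the gene groups that do not mark another cell type, chemokines and NF-κB had the highest median. Of its 18 measured members 16 were higher and 2 lower in transgenic alpha cells, at a median log2 ratio of 0.56. At least 1.5-fold higher were 8 members, against 4.21% of all 9982 genes. Only 10 of the 18 were not over 5 times more abundant in CPM in another class. Of these 10, 9 were higher and 1 lower, at a median of 0.44. Nfkbia, the inhibitor that NF-κB itself induces, had 8067 UMIs in transgenic and 3029 in wild type alpha cells, or 797.1 and 419.1 CPM, a log2 ratio of 0.93 (0.87 to 0.99). Cxcl10, an attractant of T cells, had 1790 UMIs in transgenic and 548 in wild type alpha cells, at 1.23 (1.09 to 1.37), and after thinning was seen in 37.9% of transgenic and 20.9% of wild type alpha cells. In beta cells the thinned shares were 7.51% and 9.41%, and the log2 ratio was −0.14.

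Cxcl1, a neutrophil attractant, had 462 UMIs in transgenic and 76 in wild type alpha cells, a log2 ratio of 2.12 (1.77 to 2.49). Ccl2, which attracts monocytes, had 592 UMIs in transgenic and 24 in wild type alpha cells, a log2 ratio of 4.14 (3.56 to 4.80). A single transgenic cell held 215 of the Ccl2 UMIs, or 36.3%. Leaving out the cell with most Ccl2 UMIs in each library gave 3.91, and Ccl2 was seen in 6.24% of transgenic and 1.84% of wild type alpha cells after thinning (10.5% and 2.76% before), against 1.08% and 0.389% of beta cells. Other members that passed 1.5-fold were the early response gene Ier3 (0.95), Nfkb1 (0.75), Nfkb2 (0.72) and Cxcl16 (0.59). The neutrophil attractant Cxcl2, by contrast, was at −0.70 on 74 transgenic and 86 wild type UMIs.

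Macrophages carry these chemokines at higher levels, so their markers are given beside them. Cxcl10 stood at 1292 CPM in transgenic and 2701 CPM in wild type macrophages, and Ccl2 at 429.2 and 166.8 CPM. Of 8 measured macrophage markers in alpha cells 4 were higher and 4 lower in the transgenic library, at a median log2 ratio of 0.28. At least 1.5-fold higher were 4 and as much lower 3, against 4.21% and 3.06% of all 9982 genes. C1qa was at −0.08 and C1qb at −1.15, while Lyz2 was at 2.52 with 54 of its 144 transgenic UMIs in 1 cell, at 1.92 without the highest cell of each library and at −3.08 when cells with 1% to 3% Gcg were included. The part of macrophage RNA in the chemokine ratios was not tested. At least 0.1% macrophage transcripts were present in 1 transgenic and 1 wild type alpha cell.

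The senescence and secretome list, which shares members such as Ccl2, Cxcl1 and Cxcl10 with the preceding one, had 14 of 18 members higher and 4 lower, at a median of 0.36. The cell cycle inhibitor Cdkn1a was at 0.23 (0.14 to 0.32), with 277.3 CPM in transgenic and 237.6 CPM in wild type alpha cells, against −0.30 in beta cells. Trp53 was at 0.64 and the macrophage growth factor Csf1 at 0.91 (0.42 to 1.41). Among 15 genes of class I antigen presentation 12 were higher and 3 lower, at a median of 0.22, with Psmb10 at 0.47, Tapbp at 0.42 and the peptide transporter Tap1 at −0.50. Of 18 interferon-induced genes 5 were higher and 13 lower, at a median of −0.21, and Ifit1 was at −0.61, Irf1 at 0.67 and Ifi27l2a at 2.96. In beta cells 3 of 23 were higher and 20 lower, at a median of −0.48. Many members of these lists were over 5 times more abundant in CPM in another class. Without such genes the senescence median was 0.12 over 6 members and the class I median 0.31 over 5. Only 1 of the 18 interferon-induced genes remained, at 0.004. The part of RNA from other classes in these medians was not tested.

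Several of the lowest ratios in alpha cells were those of genes for helpers of protein folding, which are named here for their ratios and are not a list of their own. The inducible heat shock gene Hspa1b had 2739 UMIs in transgenic and 5619 in wild type alpha cells, or 270.6 and 777.4 CPM, a log2 ratio of −1.52 (−1.58 to −1.45). Its neighbour Hspa1a had 4695 and 7422 UMIs, at −1.14 (−1.19 to −1.09). The coding sequences of this pair are nearly the same, so reads may have been split between them. Further down were the co-chaperones Hsph1 at −0.91, Dnajb1 at −0.83, Ahsa2 at −1.02 and Chordc1 at −0.79. In beta cells Hspa1b was at 0.26 and Hspa1a at 0.55, which on total UMIs become −0.07 and 0.22, and in gamma cells they were at −1.27 and −0.61. Hspa1a and Hspa1b belong to the list of immediate early and dissociation genes, which cells switch on within minutes of stress. In alpha cells 9 of its 25 genes were higher and 16 lower, at a median of −0.25, and 5 were at least 1.5-fold lower, against 3.06% of all 9982 genes. Only 8 of the 25 were not over 5 times more abundant in another class, 3 higher and 5 lower, at a median of −0.17. The part of RNA from other classes in this list was not tested. Fos was at −0.81 and Nr4a1 at −0.78. In beta cells the median of the list was −0.03, with 11 of 27 genes higher and 16 lower. On total UMIs it was −0.35, with 3 higher and 24 lower, so the contrast with alpha cells depends on the scaling. The labels give the same digestion for both libraries, and the part of handling was not tested.

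Of 24 genes of the endoplasmic reticulum and the unfolded protein response 5 were higher and 19 lower, at a median of −0.24. The stress pseudokinase Trib3 was the 1 member past 1.5-fold, beside 3.06% of all genes that were as much lower, at −0.76 on 51 transgenic and 62 wild type UMIs, and it was at −0.37 without cells with at least 1% Ppy. Hyou1 was at −0.47, Creld2 at −0.37 and Edem1 at −0.41, and the most abundant chaperone of the compartment, Hspa5, was at 0.01 with 15103 transgenic and 10733 wild type UMIs. In beta cells 13 of the 24 were higher and 11 lower, against 1 and 23 on total UMIs. Of 23 genes of sterol and fatty acid synthesis 17 were higher and 6 lower in alpha cells, at a median of 0.16, against 6 higher and 18 lower of 24 in beta cells, at a median of −0.27, or −0.59 on total UMIs. Fdps, of the isoprenoid branch, was at 0.61 in alpha and 0.13 in beta cells, and Idi1 at 0.42 in alpha and −0.60 in beta cells. The mitochondrially encoded genes had a median of −0.08 with 11 of 13 lower, and the nuclear respiratory chain a median of 0.03 over 71 genes.

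**Figure D4:**
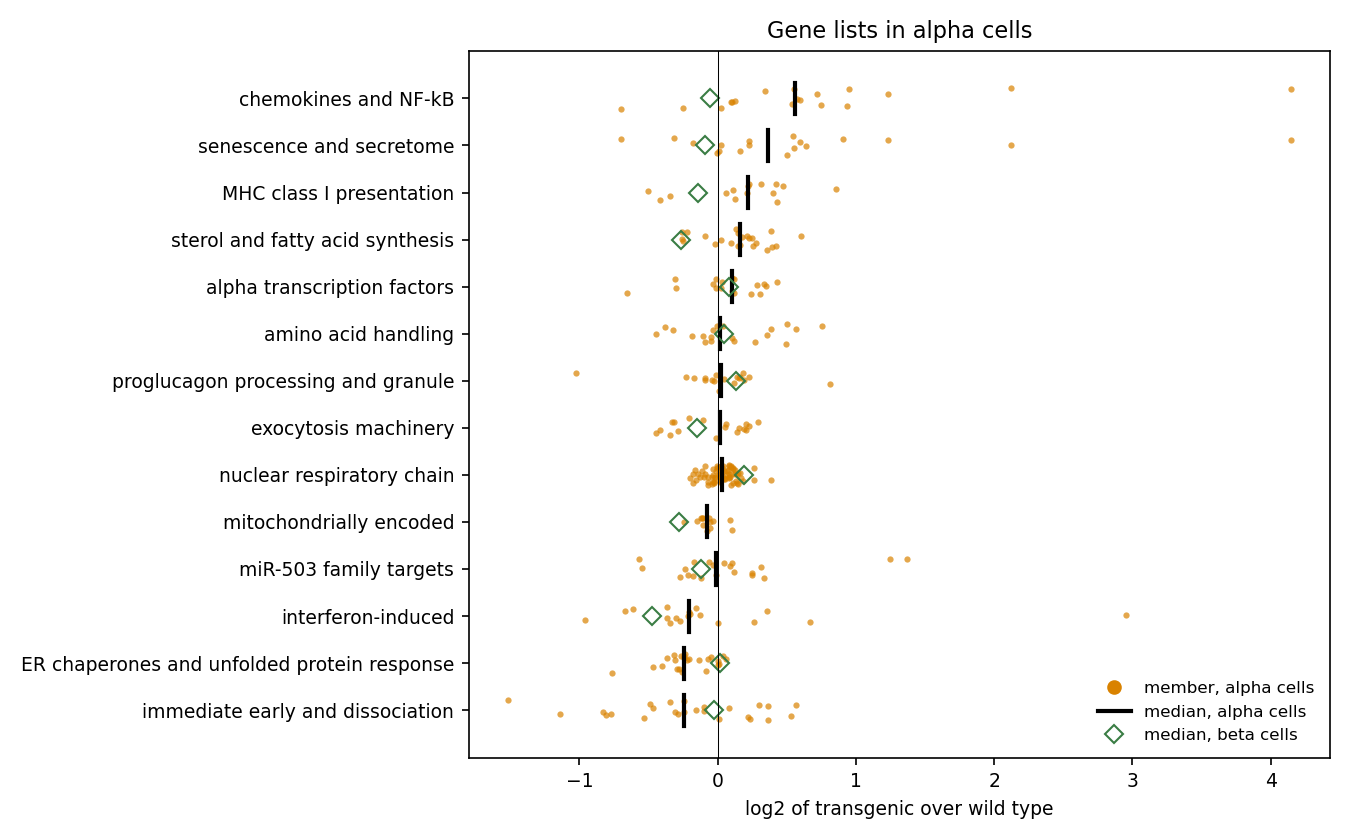
Log2 ratio of transgenic over wild type in alpha cells for members of 14 gene lists with at least 50 UMIs (orange points), with the median in alpha cells (black bar) and in beta cells (green diamond). Chemokine and NF-κB genes have the highest alpha cell median, 0.56, and immediate early and dissociation genes the lowest, −0.25.

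Of 28 measured genes enriched in alpha cells 19 were higher and 9 lower, at a median of 0.15. Of 17 genes of electrical excitability and calcium entry 9 were higher and 8 lower, at a median of 0.01, and of 21 genes of oxidative stress defence 13 were higher and 8 lower, also at 0.01. In glycolysis and lactate handling 12 of 19 were higher and 7 lower, at a median of 0.13, and the lactate dehydrogenase gene Ldha, which islet cells keep low, was at 1.78 on 48 transgenic and 10 wild type UMIs. Markers of cells other than alpha cells are given for comparison. Of 12 beta cell markers 5 were higher and 7 lower, of 5 duct markers 4 were higher and 1 lower, at a median of 0.38, and of 7 endothelial markers 2 were higher and 5 lower, at a median of −0.46, with Esm1 at −2.72 on 15 transgenic and 71 wild type UMIs. Their part in the other ratios was not tested.

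Of 21 measured genes reported as targets of the miR-503 family 10 were higher and 11 lower, at a median of −0.01, beside 7 higher and 19 lower of 26 in beta cells, at a median of −0.12, or −0.45 on total UMIs. The D-type cyclin genes, whose products drive cells out of G1, were at −0.17 for Ccnd1 (−0.36 to 0.01), 0.12 for Ccnd2 and −0.55 for Ccnd3. Insr was at −0.27 and Jazf1 at 0.04 on 46 transgenic and 32 wild type UMIs. Cdk6, a cyclin-dependent kinase, was at 1.37 (0.93 to 1.83). Of 17 genes of insulin and growth signalling 9 were higher and 8 lower, and Irs2 was at −0.69 (−0.97 to −0.42), with 20.9 CPM in transgenic and 34.0 CPM in wild type alpha cells.

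After those exclusions the highest ratio was that of Hamp, which encodes the iron hormone hepcidin, at 2.33 (1.82 to 2.87) with 252 transgenic and 36 wild type UMIs. Few cells carried it: 5 cells held 47.2% of the transgenic and 72.2% of the wild type UMIs, and without the highest cell of each library the ratio was 2.64. The next were Tmem158 at 1.46, the transcription factor Sox4 at 1.22 and the uroplakin gene Upk3a at 1.11. Sox4 had 1342 UMIs in transgenic and 414 in wild type alpha cells and was seen after thinning in 28.2% and 17.5% of them. The growth factor Tgfb2 was at 1.08, Zfp697 at 1.07, Zbtb7c at 1.05, the sugar phosphate transporter Slc37a1 at 1.02 and the actin-associated Palld at 1.01. The metallothionein Mt2 was at 1.0, and Ppargc1a, a coactivator of mitochondrial genes, at 0.92.

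On the lower side stood Swt1, a nuclear RNA endonuclease, at −1.12 (−1.31 to −0.92), with 35.6 CPM in transgenic and 77.5 CPM in wild type alpha cells. Besides the co-chaperones already given, these were Erdr1 at −0.99, the lectin Lman2l at −0.99, the actin-capping Tmod1 at −0.98, the fatty acid elongase Elovl5 at −0.82, PISD at −0.81, Reep6 at −0.79 and Mlf1 at −0.79. Erdr1 and PISD were lower in beta cells also, at −0.86 and −0.79, while Lman2l was at 0.03 and Tmod1 at 0.17 there.

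Of 11 measured islet peptide transcripts 2 were higher and 9 lower in transgenic alpha cells, at a median of −0.19. Only 3 of them were not over 5 times more abundant in another class, at a median of −0.07. Pyy was at −0.26, Ppy at −0.19 and Sst at −0.16. Gast, the gastrin gene, was at −5.07 with 55 transgenic and 1328 wild type UMIs, and Cck, the cholecystokinin gene, at −5.78 with 21 and 827. A single wild type cell with 58348 UMIs, 5.70% Gcg and 8.47% insulin transcripts held 93.4% of the wild type Gast and 91.5% of the wild type Cck UMIs. Without the highest cell of each library the log2 ratios were −1.22 for Gast and −2.44 for Cck. In cells thinned to 5000 UMIs, Cck was seen in 0.761% of transgenic and 4.6% of wild type alpha cells, beside 0.744% and 3.21% of beta cells. Before thinning it was seen in 2.44% of transgenic and 13.6% of wild type alpha cells (median depths 14493 and 15041 UMIs). Among macrophages, which should lack it, it was seen before thinning in 0 of 41 transgenic cells, which allows up to 7.32%, and in 9.09% of 55 wild type cells (median depths 10231 and 10531 UMIs). Gamma cells had 0.912 CPM of Gast in the transgenic and 1667 CPM in the wild type library. Tac1, which encodes substance P, was at 1.92 with 185 transgenic and 35 wild type UMIs, of which 1 wild type cell held 48.6%, and at 2.63 without the highest cell of each library.

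The difference between genotypes was set against that in beta cells of the same libraries. Of 4225 genes measured in both classes, 163 (3.86%) had a log2 ratio at least 1.5-fold higher in alpha than in beta cells and 85 (2.01%) at least 1.5-fold lower. On total UMIs these counts were 891 and 24, since beta cell ratios move with the scaling. Mt2, which binds zinc and copper, had 17502 UMIs in transgenic and 6253 in wild type alpha cells, or 1729 and 865.2 CPM, a log2 ratio of 1.0 (0.96 to 1.05). In beta cells it stood at 1038 CPM in the transgenic and 2569 CPM in the wild type library, a ratio of −0.98, so the classes differed by 1.99 (1.94 to 2.03). Mt1 had 2321 CPM in transgenic and 1394 CPM in wild type alpha cells, at 0.74, against −0.75 in beta cells. After thinning, Mt2 was seen in 91.2% of transgenic and 89.2% of wild type alpha cells, and Mt1 in 96.8% and 98.6%. In delta cells Mt2 was at 0.09 and in gamma cells at 0.41.

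The desmosome gene Dsp had the next largest difference in that direction, 1.64, with 0.08 in alpha and −1.56 in beta cells, followed by Dnase2a at 1.57, Palld at 1.56, Ppargc1a at 1.51 and the membrane protease St14 at 1.51. In the other direction were Swt1 at −1.30, the phosphatase Dusp26 at −1.26, Krtap17-1 at −1.23, the protease inhibitor Serpine2 at −1.22, the tight junction gene Cldn6 at −1.20 and the collagen gene Col27a1 at −1.20. For Dusp26, Serpine2, Cldn6 and Col27a1 the beta cell ratio was the larger part, between 1.08 and 1.70. The plot of ratios in both classes shows Ccl2, Cxcl1 and Cxcl10 high and Hspa1a and Hspa1b low on the alpha cell axis.

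**Figure D5:**
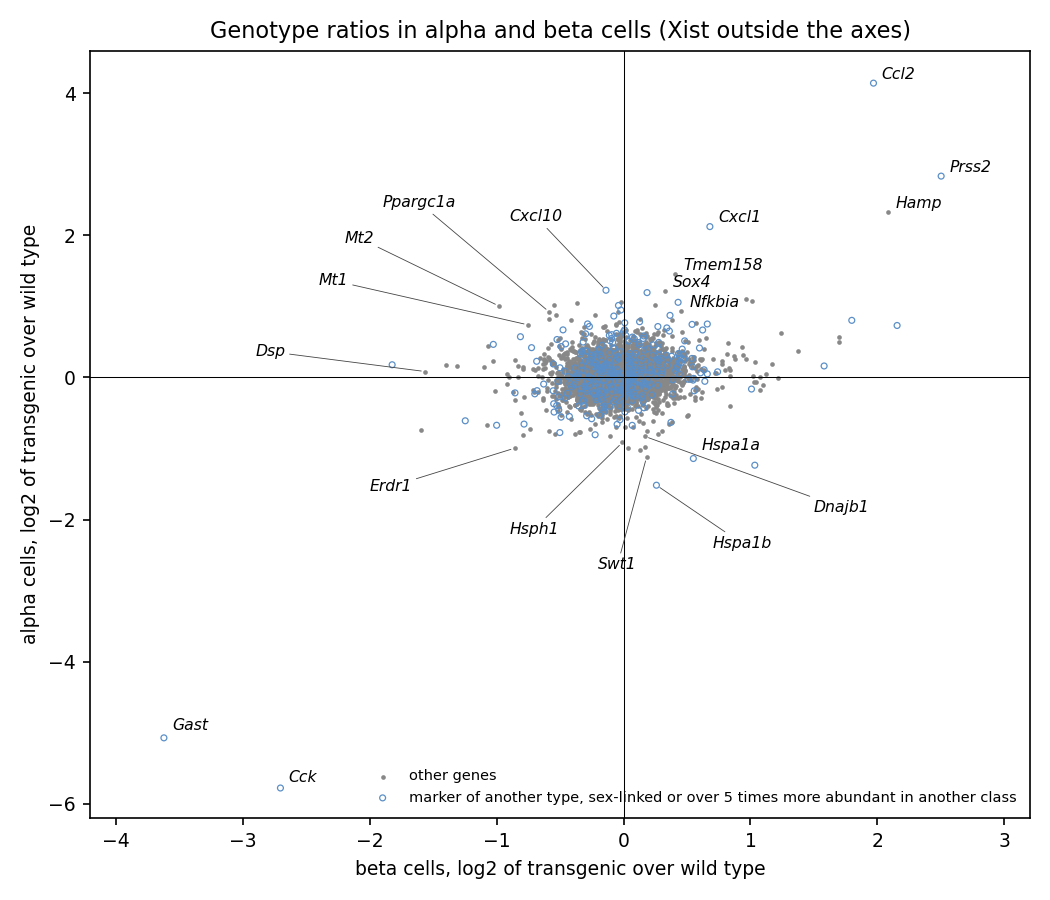
Log2 ratio of transgenic over wild type in alpha cells (vertical) against beta cells (horizontal) for the genes tested in alpha cells, with open blue circles for the genes set aside (sex-linked, marking another cell type, or higher by over 5 times in CPM elsewhere). Mt1, Mt2 and Ppargc1a lie above 0 in alpha and below 0 in beta cells, and Hspa1a and Hspa1b the other way, except that Hspa1b is at −0.07 in beta cells on total UMIs.

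Few alpha cells were dividing. Counting cells with at least 5 of 21 genes of the G2 and M phases, 4 of 657 transgenic alpha cells were found (0.609%, 95% interval 0.166 to 1.55) and 0 of 435 wild type alpha cells, which allows a share of up to 0.690%. Among beta cells there were 32 of 2689 in the transgenic (1.19%) and 4 of 3338 in the wild type library (0.120%). Top2a, which untangles chromosomes in dividing cells, had 18 UMIs in transgenic alpha cells, 14 of them in the 4 cells counted, and 1 UMI in wild type alpha cells. The dividing alpha cells were few and the ranges of both shares overlap, so no difference between the genotypes in dividing alpha cells can be read.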

How the data were processed

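Islets were dissociated with trypsin and EDTA and captured with 10x Chromium 3 prime version 2 reagents, per the labels' protocols. Build mm10, STAR 2.5.1b and Cell Ranger 2.1.0 appear in the submitters' processing notes. Not given in the sources used here are the annotation release and the filter on barcodes. The authors deposited counts: each value is a whole number of UMIs of 1 gene in 1 cell, not normalized.

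Cells were classed by hormone shares, and doublets were not removed. Scrublet in scanpy 1.11.5 marked 3 transgenic (0.0723%) and 2 wild type cells (0.0442%) by its automatic threshold, so the top 4% of scores, which held 9 transgenic and 6 wild type alpha cells, were left out as an alternative only. UMIs were summed per class and library and scaled by trimmed mean of M values (TMM). Ratios carry exact conditional binomial and shares exact Clopper-Pearson 95% intervals, differences between classes a delta-method interval, and a share of 0 has 3 counts as its upper limit. In simulated alpha cell sums of 8295 genes, 99% of genes changed 2-fold passed 1.5-fold, as did 0.667% of 8095 unchanged genes. The simulation held counting error only, without variation among cells or libraries. It changed only better measured genes and set no CPM minimum, so it gives no rate of false calls for these libraries. Python 3.11.15, numpy 2.4.6, scipy 1.17.1, pandas 2.3.3 and matplotlib 3.10.9 were used. Gene coordinates come from GENCODE M21 on GRCm38.

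Named genes are the defining markers, the 12 highest and 12 lowest ratios after the exclusions given, up to 4 members per list with the largest ratios on at least 100 UMIs, the 15 genes with the highest fold over other endocrine classes, the 6 highest and 6 lowest alpha minus beta differences, the 8 genes most like Gcg, and genes of prior interest. Other list members and the genes set apart by Ppy were chosen after their values were seen. Some genes that these rules name are not reported here. The members and lists were chosen with earlier results of these data known.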

Additional observations from a re-analysis of the deposited data

Results flagged for a closer look

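Mt1, Mt2 and Ppargc1a stood out among 4225 genes measured in both classes because they passed 1.5-fold in opposite directions in alpha and beta cells. Mt2 had a log2 ratio of 1.0 in alpha and −0.98 in beta cells, a difference of 1.99 (95% counting interval 1.94 to 2.03). Mt1 was at 0.74 in alpha and −0.75 in beta cells, a difference of 1.49 (1.46 to 1.53). These ratios are of summed UMIs. After thinning, Mt2 was seen in 91.2% of transgenic and 89.2% of wild type alpha cells, and Mt1 in 96.8% and 98.6%. How evenly cells shared the difference was not tested. Ppargc1a was at 0.92 in alpha and −0.59 in beta cells, a difference of 1.51 (1.15 to 1.87), on 267 transgenic and 101 wild type alpha cell UMIs. Its beta cell ratio lay at the 1.5-fold limit of 0.585 and was −0.58, short of it, when scaled by total UMIs without 8 hormone-related genes. With 1 library per group these differences were not tested.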

How the results depend on the processing

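No paired analysis was possible because each genotype was 1 library. The wild type alpha cell share was 10.97% when the mitochondrial limit was 5%, and without the CPM minimum 226 of 8305 genes were higher and 141 lower. Under the other alternatives the counts were 70 to 103 higher and 43 to 55 lower. Tspan8 (−0.60 as reported) turned to 0.0436 with Gcg at least 10%, 0.16 with insulin below 5%, 0.0169 as the mean of per-cell CPM, 0.21 without cells over 30000 UMIs and 0.29 without cells with Ppy at least 1%. Cd24a turned to 0.0338 with Gcg at least 10%, against −0.97, and Lyz2 to −3.08 with Gcg at least 1%, against 2.52; the causes were not tested. No other named gene past 1.5-fold changed sign. Leaving out cells with Ppy at least 1%, cells over 30000 UMIs, cells with an Xist UMI or the highest cell of each gene was chosen after seeing the data. Scaling by total UMIs, tried for beta cells after seeing the data, gave 891 genes whose log2 ratio was at least 1.5-fold higher in alpha than in beta cells and 24 lower, against 163 and 85. Of list medians 16 moved and 248 did not, and of log2 ratios 114 moved. The receptor median ran from −0.08 to 0.26, that of the cell cycle list from 0.01 to 0.37, that of peptide transcripts up to −0.00403 and that of the senescence list from 0.32 to 0.55. The median of the chemokine and NF-κB list ran from 0.51 to 0.60 and that of the unfolded protein response list from −0.25 to −0.22. Depth limits genes such as Glp1r, Gcgr and Pou3f4, with 41 UMIs or fewer over both libraries.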
